A study of Mus musculus with 2 samples.

Results

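The lacrimal gland makes the watery layer of tears, and its epithelium arises as a bud from the conjunctiva that branches into the surrounding mesenchyme. FGF10 from the mesenchyme signals to FGFR2 on the bud and drives its growth, with Sox9, Sox10, Barx2 and Pax6 among the transcription factors known to act in the bud. In branching glands, cells that touch the basement membrane carry basal keratins such as Krt14 and Krt5, inner cells carry luminal keratins such as Krt8, Krt18 and Krt19, and a young basal cell can still give rise to duct, secretory and contractile myoepithelial cells.

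The cells described here are the epithelial cells of the lacrimal gland at embryonic day 16 (E16) in wild-type CD1 mice, which are outbred. The series holds 2 libraries of single cells, 1 from E16 glands and 1 from glands at postnatal day 4 (P4), each from pooled glands dissociated with enzymes. How many animals a pool held was not given in the sources used here. Because a stage is 1 library, differences have no replicate check and no test across samples could be made. Counts are of UMIs, the molecular barcodes that mark single captured transcripts.

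A barcode was taken as a cell of the E16 epithelium if it had at least 200 detected genes and under 50% haemoglobin UMIs, and if it met a gate on 3 sums. The sum E of 8 epithelial genes (Epcam, Cdh1, Krt8, Krt18, Krt14, Krt15, Cldn3 and Cldn7) had to reach 3 UMIs and to exceed the sum M of 6 mesenchymal genes (Col1a1, Col1a2, Col3a1, Dcn, Lum and Pdgfra). At most 1 UMI of the endothelial genes Pecam1, Cdh5 and Emcn was allowed. The gate took 74 of 234 E16 cells (31.6%, exact Clopper-Pearson 95% interval 25.7 to 38.0%), of 628 cells in both libraries, and the same gate took 85 of 394 P4 cells (21.6%, 17.6 to 25.97%). The cells were thus chosen by their own UMIs of these genes, whose levels in them are no finding. A gate with the roles of E and M exchanged gave 104 E16 mesenchymal cells for comparison. No barcode sequence was shared between the libraries.

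The 74 cells held 592985 UMIs, with 852 to 31749 per cell and a median of 6152.5 UMIs and 2127 genes. The P4 cells of the gate held 596129 UMIs at a median of 3647, and the E16 mesenchymal cells 659433 at a median of 5825. E had a median of 19 and a range of 3 to 158 in the E16 epithelial cells, and M a median of 1 and a range of 0 to 6. At the edge of the gate, 6 cells had an E of 3 or 4, with a median of 2156 UMIs and a median M of 0, and 10 E16 cells with an E of 2 stayed outside. Every interval below is at the 95% level and reflects counting error alone, so it says nothing of how cells vary.

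Genes outside the gate describe the cells further, but they are no independent check of the label: Mia, Barx2 and Col9a1 are markers listed for these cells, and Fxyd3, Perp, Gpx2 and Sfn were named for standing far above the mesenchymal cells. Mia, a secreted cartilage-associated protein, had UMIs in 59 of 74 cells, Barx2 in 67 and Col9a1, a collagen IX chain, in 53. In the 160 other E16 cells, at a median of 5487.5 UMIs, Mia had UMIs in 7 (4.38%), Barx2 in 4 (2.50%) and Col9a1 in 14 (8.75%). Mia summed to 452 counts per 1000000 UMIs (CPM) in the epithelial cells and 1.52 CPM in the mesenchymal cells, and Barx2 to 427 and 7.58 CPM. Fxyd3, which regulates the sodium pump in epithelia, had 436 UMIs against 2 in mesenchymal cells, and Perp, a component of desmosomes, 350 against 2. Gpx2, a glutathione peroxidase of epithelia, had 174 against 2, and Sfn (stratifin), typical of stratified epithelia, 110 against 0. The gate itself separates these sets of cells, so the 736 of 5619 genes (13.1%) at least 2-fold higher and the 1119 (19.9%) at least 2-fold lower than in mesenchymal cells are a description.

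Markers of other cell types were low on some lists and not on others. Among 8 endothelial genes tallied apart from the gate, Kdr, Cldn5, Plvap and Tie1 were at 0 UMIs, and 25 of 29 UMIs of the list came from Egfl7. The list of 10 macrophage and leukocyte genes summed to 52.3 CPM in E16 epithelial cells, against 72.8 CPM in E16 mesenchymal cells. On the list of 10 glial genes, S100b, a glial calcium-binding protein, had 1 UMI and Cdh19, a cadherin of Schwann cell precursors, 0. Fabp7 had 168 and Sox10 52, and these last genes gave most UMIs of the list. The glial list summed to 410 CPM in E16 epithelial cells and 361 CPM in E16 mesenchymal cells. Haemoglobin was present throughout: Hbb-bs had UMIs in 71 of 74 cells, and the erythroid list summed to 2025 CPM in E16 epithelial cells, 2094 CPM in E16 mesenchymal cells and 1971 CPM in P4 cells of the gate. Postn, a stromal matrix protein, had 16 UMIs in the epithelial cells and 474 in the mesenchymal cells. The list of 13 mesenchymal genes that holds Postn summed to 450 CPM in the epithelial cells and 5066 CPM in the mesenchymal cells. The 13 mitochondrial features held no UMI, so damaged cells could not be judged from them.

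Promoter sequences are shown for 3 genes that carry the contrasts described below. Mia was detected throughout the epithelium, and Wfdc18 was concentrated in a small luminal group. Col9a1 was lower in the luminal range of keratin share, defined below, than in the mixed and basal ranges. Mia lies on chromosome 7, Col9a1 on chromosome 1 and Wfdc18 on chromosome 11. Each window runs from 250 bases before to 50 bases after an annotated start, from RefSeq on GRCm38.p6, in lower case, and all 3 genes were matched by symbol. Capitals mark the SOX core letters ACAAT or ATTGT and the AP-2 type letters GCCNNNGGC, whose factors include the expressed genes Sox10, Sox9, Tfap2b and Tfap2c. ATTGT is ACAAT on the other strand, and GCCNNNGGC reads the same on both strands, so matches of either strand are marked.
Mia, chr7:27181100-27181399, minus strand: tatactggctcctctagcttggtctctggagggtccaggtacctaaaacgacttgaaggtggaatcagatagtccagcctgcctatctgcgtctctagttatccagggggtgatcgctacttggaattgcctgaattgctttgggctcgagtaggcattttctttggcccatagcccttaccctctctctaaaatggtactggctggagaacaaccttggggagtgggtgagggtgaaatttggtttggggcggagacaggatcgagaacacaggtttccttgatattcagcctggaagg
Col9a1 at its first start, chr1:24177360-24177659, plus strand: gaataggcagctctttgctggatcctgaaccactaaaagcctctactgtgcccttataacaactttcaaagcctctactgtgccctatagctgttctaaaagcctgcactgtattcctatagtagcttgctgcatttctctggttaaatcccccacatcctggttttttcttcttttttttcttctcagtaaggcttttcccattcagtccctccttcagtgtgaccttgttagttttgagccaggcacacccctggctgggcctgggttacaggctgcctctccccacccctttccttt
Col9a1 at its second start, chr1:24194953-24195252, plus strand: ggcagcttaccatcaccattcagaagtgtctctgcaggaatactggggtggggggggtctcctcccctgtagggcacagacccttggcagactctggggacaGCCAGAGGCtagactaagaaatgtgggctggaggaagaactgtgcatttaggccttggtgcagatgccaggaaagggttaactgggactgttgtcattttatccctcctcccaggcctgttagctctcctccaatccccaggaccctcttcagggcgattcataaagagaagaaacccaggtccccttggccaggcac
Wfdc18, chr11:83708754-83709053, plus strand: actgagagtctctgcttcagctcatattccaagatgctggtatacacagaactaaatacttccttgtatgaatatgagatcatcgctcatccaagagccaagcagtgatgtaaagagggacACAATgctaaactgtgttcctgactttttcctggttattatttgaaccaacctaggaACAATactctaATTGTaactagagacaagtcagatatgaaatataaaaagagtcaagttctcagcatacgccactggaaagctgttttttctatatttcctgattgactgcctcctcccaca
Wfdc18 held 3 SOX core matches, the second Col9a1 start held 1 AP-2 type match, and the other windows held neither set of letters. Of 32851 RefSeq windows of this length, 31.0% held a SOX core and 16.6% the AP-2 type letters. A match is a run of letters only, and UMI counts per gene do not tell the Col9a1 starts apart.

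UMIs of basal and luminal keratins were found together in many E16 epithelial cells. Of these 6 keratins 4 are gate genes, so their presence in some form was required. Of 74 cells, 49 (66.2%, 54.3 to 76.8%) had UMIs of both Krt14, Krt15 or Krt5 and Krt8, Krt18 or Krt19, 8 had basal keratins only and 17 luminal keratins only. In the 160 other E16 cells, where such UMIs can be free RNA, 4 (2.50%, 0.685 to 6.28%) had both kinds, 17 (10.6%) a basal and 21 (13.1%) a luminal keratin. In P4 cells of the gate the counts were 28 with both (32.9%, 23.1 to 44.0%), 1 with basal only and 56 with luminal only. Detection depends on depth, and with each cell thinned to 1048 UMIs the E16 cells gave 16 with both, 16 basal only, 27 luminal only and 14 neither, of 73. The thinned P4 cells gave 11 with both, 4 basal only, 55 luminal only and 6 neither, of 76. The cells with both were thus 21.9% (13.1 to 33.1%) in E16 and 14.5% (7.45 to 24.4%) in P4 at equal depth, with intervals that overlap, against 3 of 155 other E16 cells (1.94%, 0.401 to 5.55%). Cells with basal keratins only were 21.9% (13.1 to 33.1%) in E16 and 5.26% (1.45 to 12.9%) in P4.

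**Figure D1:**
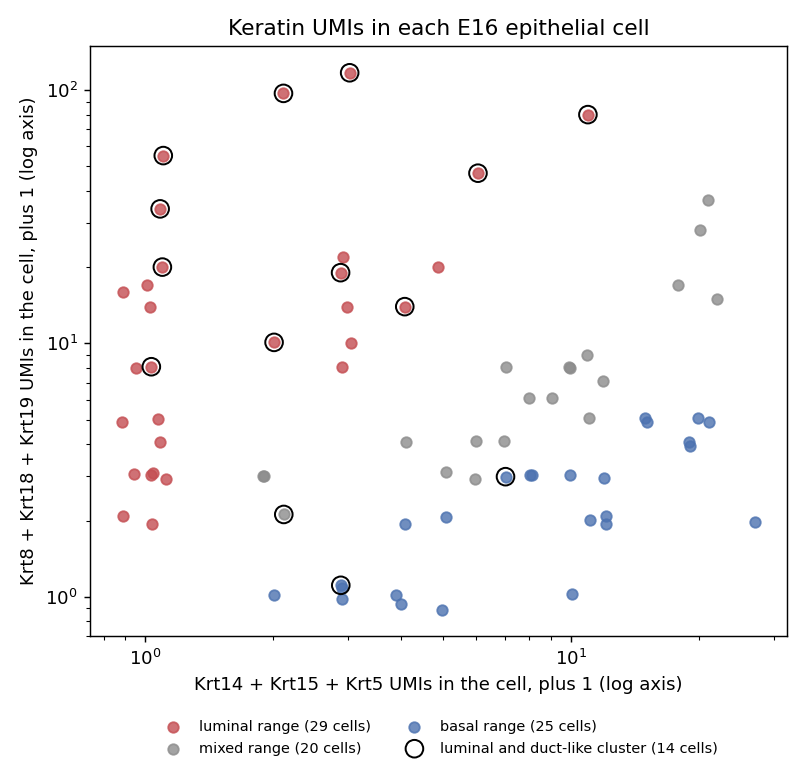
Each point is 1 of the 74 E16 epithelial cells, with its Krt14, Krt15 and Krt5 UMIs across and its Krt8, Krt18 and Krt19 UMIs up, plus 1 on log axes and with a small random shift. Colours give the range of the luminal share of keratin UMIs (29 luminal, 20 mixed, 25 basal) and rings the 14 cells of the luminal and duct-like cluster, 11 of which are in the luminal range.

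To describe this spread, cells were divided by the luminal share of their 6 keratins, with limits at 25% and 75% that were set after the values were seen. The luminal range held 29 cells, the mixed range 20 and the basal range 25. These are stretches of a continuous measure and not cell types: 10 cells lay within 0.05 of a limit (as a fraction), and 20 cells had only 1 to 4 keratin UMIs. Median depth was 3934 UMIs in the luminal range, 9496 in the mixed range and 5491 in the basal range. Of 2112 genes with at least 30 UMIs over the luminal and basal ranges, 151 (7.15%) were at least 2-fold higher in the luminal range and 156 (7.39%) at least 2-fold lower. The ranges and the genes named for them come from the same cells, so these values describe them and test nothing.

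Luminal and basal ranges differed in more than their keratins, and for Cldn4 and Ehf the difference lay mostly in the 14 cells of a cluster described below. On the luminal and duct list, 10 of 13 measured genes were at least 2-fold higher in the luminal range and none lower, a count that includes the keratins used to form it. Without the cells of that cluster, 7 genes of the list were measured in the other 18 luminal-range cells and the basal range. Of these, 4 were at least 2-fold higher in the 18 cells and none lower. The count again includes Krt8 (439 and 144 CPM) and Krt18 (610 and 63.2 CPM), whose UMIs form the ranges. Over all genes, 104 of 1803 (5.77%) were higher and 140 (7.76%) lower, but a count that holds these keratins cannot be weighed against that share. Cldn4, a tight junction claudin not used by the gate or the ranges, had 111 UMIs (573 CPM) in the luminal range and 7 (40.2 CPM) in the basal range. The cluster held 101 Cldn4 UMIs, 50 of them in 1 cell, and the 18 other luminal-range cells were at 81.8 CPM. Elf5, a transcription factor of luminal progenitors in the mammary gland, had 26 UMIs in the luminal range and 1 in the basal range, with 13 UMIs in the cluster and 14 in the 18 cells. Ehf, an epithelial transcription factor of the ETS family, had 53 and 11 UMIs in these ranges, a ratio of 4.32 (2.23 to 9.18). Of its UMIs 43 lay in the cluster, and it was at 81.8 CPM in the 18 cells and 63.2 CPM in the basal range. Crabp2, which carries retinoic acid to its receptors, was 4.24-fold (2.66 to 7.06) higher in the luminal range, at 934 CPM in the cluster and 342 CPM in the 18 cells.

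The basal range held more contractile and matrix transcripts. Acta2, smooth muscle actin, had 47 UMIs (242 CPM) in 11 of 29 luminal-range cells and 211 UMIs (1213 CPM) in 24 of 25 basal-range cells, and 1550 CPM in the mixed range. Myl9, a myosin light chain, had 36 and 147 UMIs in the luminal and basal ranges, and Tagln, an actin-binding protein, 4 and 42. All 3 myoepithelial genes measured here were at least 2-fold lower in the luminal range, against 7.39% of all 2112 genes. On the list of laminins and basement membrane genes, 3 of 5 measured were at least 2-fold lower in the luminal range, against the same share. Among them Sparc, a collagen-binding protein, had 28 and 127 UMIs, and Dag1, the laminin receptor dystroglycan, 4 and 32. The mesenchymal cells held 1723 Sparc UMIs and 662 Acta2 UMIs. The list of mesenchymal genes outside the gate summed to 397 CPM in the luminal range, 493 CPM in the mixed range and 454 CPM in the basal range, and the part of mesenchymal RNA in the Acta2 and Sparc difference was not tested.

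Among contractile genes, some were frequent and others nearly unseen. Acta2 had 607 UMIs in 53 of 74 cells, Myl9 370 in 58, Tagln 97 in 26 and Actg2, a second smooth muscle actin, 30 in 19. By contrast Cnn1 (calponin) had 2 UMIs, Myh11 (smooth muscle myosin) 1, and Oxtr (the oxytocin receptor), Des (desmin) and Lmod1 (leiomodin) 0. In P4 cells of the gate Cnn1 had 53 UMIs in 14 cells and Myh11 16 in 11. Cnn1 was 0.0379-fold (0.00448 to 0.144) in E16 over P4, while Acta2 was 1.02-fold (0.91 to 1.14), and its log2 sign turned under 4 other settings. Of the mural cell markers Rgs5 had 1 UMI, Pdgfrb 2, and Kcnj8 and Abcc9 0 in the E16 epithelial cells.

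Clustering of the 74 cells gave 5 clusters, of which 1 met the rule for a name. Cluster 4, with 14 cells at a median of 2935 UMIs, was luminal and duct-like: Cldn4, Krt19, Krt18, Cldn3 and Cldn6 were among its 10 leading genes, with Wfdc18, Adh7, Nupr1, Foxq1 and Klf6. Of these 10 genes 4 had over 50% of their cluster UMIs in 1 cell: Adh7 (65.0%), Nupr1 (55.6%), Foxq1 (60.0%) and Cldn6 (74.1%). The other clusters, of 16, 11, 17 and 16 cells, stayed unnamed, and all 10 leading genes of each had over 50% of their cluster UMIs in 1 cell. For instance, 48 of 51 Kat5 UMIs of the 11-cell cluster were in a single cell. Such genes were few over the whole set: of 3113 genes with at least 30 UMIs in the E16 epithelial cells, 90 had over 50% of them in 1 cell. Under 7 other clustering settings the group highest for luminal genes held 11 to 16 cells and shared 9 to 14 with the main group.

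The 14 luminal and duct-like cells stood apart as a group in many genes, given as what defines them. Not every cell carried them: 11 were in the luminal range, 1 in the mixed and 2 in the basal range. The last 2 had 6 Acta2 UMIs each and no Wfdc18 UMI. Wfdc18, a secreted WAP domain protein, reached 178 UMIs in 1 cell, with a median of 46.8 UMIs per 10000 in this cluster and 0 in each of the other groups. It had UMIs in 11 of 14 cells of the cluster, 4 of 18 other luminal-range cells, 5 of 19 other mixed-range cells and 3 of 23 other basal-range cells, and in 5 of 104 mesenchymal cells. At 1048 UMIs a cell these shares were 9 of 13, 1 of 18, 1 of 19, 1 of 23 and 2 of 104. Anxa1, a membrane-binding annexin, had 3361 CPM in the cluster and 255 CPM in the other 60 cells. Krt7, a duct keratin, had 18 of its 20 UMIs in these cells.

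Several genes of the growing bud were low or at 0 in the same 14 cells and others were not. The bud and tip list summed to 1836 CPM in the cluster and 2837 CPM in the other cells, the FGF response list to 2692 and 2881 CPM. Etv4, an ETS factor induced by FGF signalling, had 0 UMIs in the cluster and 57 in the other cells, and Bmp7, a growth factor of branching buds, 0 and 34. Etv5, the relative of Etv4, had 3 UMIs (46.7 CPM) in the cluster and 130 (246 CPM) in the others. Dusp6, a phosphatase that limits ERK, had 1 (15.6 CPM) and 78 (148 CPM). The ratios of Etv5 and Dusp6 were 0.19 (0.039 to 0.57) and 0.105 (0.0026 to 0.61), on these few UMIs in the cluster. On the other side Barx2 was 1.83-fold (1.30 to 2.53) and Phlda1, which FGF can also induce, 1.84-fold (1.49 to 2.26) higher in the cluster. The ratios of Sox9, at 2.50 (0.91 to 6.03), of Il17rd, an inhibitor of FGF signalling, at 2.74 (0.89 to 7.21), and of the FGF inhibitor Spry1, at 1.097 (0.28 to 3.11), rested on 7, 6 and 4 UMIs in the cluster. Trp63, the master factor of basal cells, had 0 UMIs in the cluster and 26 in the others. The cluster held 64262 UMIs, so 3 UMIs over the cluster, the limit that a count of 0 allows, correspond to 46.7 CPM. That is near the level of Trp63 in the other cells, and Bmp7 was at 64.3 CPM there. The 0 of Trp63 or of Bmp7 in the cluster is thus not evidence of absence. The S phase list summed to 1852 CPM in the cluster and 3520 CPM in the other cells, the glycolysis and hypoxia list to 8107 and 13665 CPM. The list of immediate early and heat shock genes, which enzyme digestion can induce, summed to 17195 and 8303 CPM. Its part in the cluster's profile was not tested.

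The 18 luminal-range cells outside that cluster are what the keratin limit left, not a kind of cell. Of them 8 lay in the unnamed cluster of 11 cells, 7 in that of 17 and 3 in one of 16, and 9 had only 1 to 4 keratin UMIs. They had Krt18 at 610 CPM but no Krt19 and no Krt7 UMI, at a depth where 3 UMIs correspond to 22.3 CPM. Fabp7, a fatty acid carrier better known from radial glia, had UMIs in 15 of 18 of them at a median of 8.05 UMIs per 10000, in 6 of 14 cells of the cluster, 11 of 19 of the other mixed range and 8 of 23 of the other basal range. With each cell thinned to 1048 UMIs it was seen in 12 of 18 (66.7%, 41.0 to 86.7%), 4 of 13, 2 of 19 (10.5%, 1.30 to 33.1%) and 1 of 23 (4.35%, 0.110 to 21.9%), and in 2 of 104 mesenchymal cells. Ccnd1 (cyclin D1), which drives entry into the cell cycle, summed to 2320 CPM in the 18 cells, 607 CPM in the cluster, 835 CPM in the whole mixed range and 575 CPM in the whole basal range. Of its 312 UMIs in the 18 cells 247 came from 3 cells of at least 20124 UMIs, and without them the sum was 985 CPM. Without their own 3 top cells for Ccnd1, the mixed range was at 413 CPM and the basal range at 164 CPM. In the basal range 1 cell held 67.0% of the Ccnd1 UMIs. Its medians were 3.57 UMIs per 10000 in the cluster, 8.18 in the 18 cells, and 4.80 and 0.89 in the other mixed and basal groups. Thinned, it was seen in 11 of 18, 3 of 13, 6 of 19 and 7 of 23.

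Notch target genes were seen in these cells and in the mixed range. Hey1, a repressor induced by Notch, had 20 UMIs (149 CPM) in the 18 cells, 2 in the cluster, 16 (71.1 CPM) in the mixed range and 5 (28.7 CPM) in the basal range. Of the 20 UMIs 13 (65.0%) were in 1 cell, and without it the 18 cells were at 61.2 CPM. Without their own top cell for Hey1, the mixed range was at 58.8 CPM and the basal range at 21.1 CPM. Nrarp, a feedback inhibitor of Notch, had 19 UMIs (141 CPM) in the 18 cells, 3 in the cluster, 21 (93.3 CPM) in the mixed range and 1 in the basal range. Hes1, another Notch target, had a luminal over basal ratio of 1.11 (0.64 to 1.97). The receptor gene Notch1 itself had a luminal over basal ratio of 1.003 (0.49 to 2.05). Cldn10, a claudin of secretory epithelia that lets cations or anions pass between cells, had 42 UMIs (312 CPM) in the 18 cells, 4 in the cluster, 17 (75.5 CPM) in the mixed range and 11 (63.2 CPM) in the basal range.

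**Figure D2:**
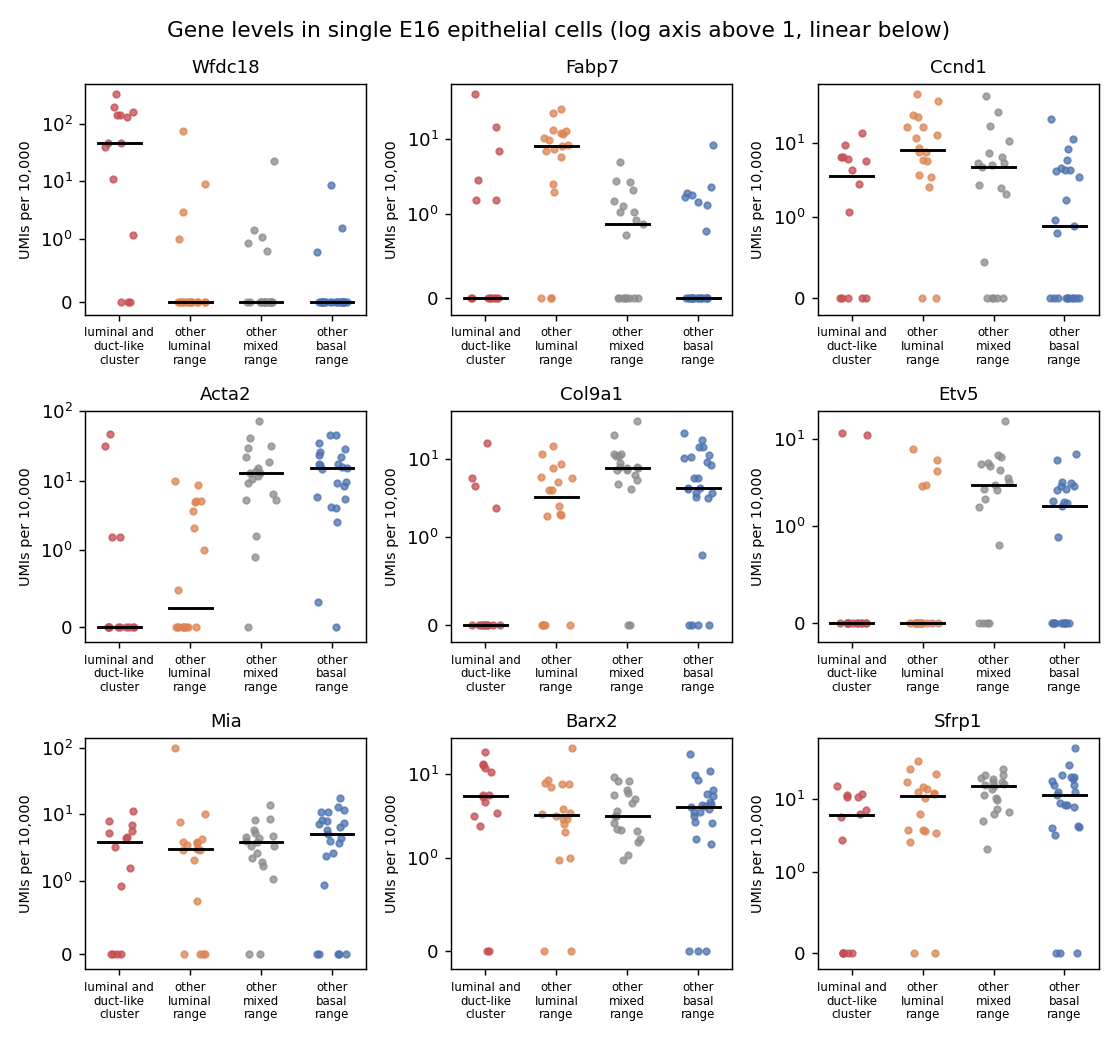
Each point is an E16 epithelial cell, with UMIs of the gene per 10000 UMIs of the cell up (log above 1, linear below), a black line at the median, and 4 separate groups: the 14 luminal and duct-like cells, then 18, 19 and 23 other cells of the luminal, mixed and basal ranges. Wfdc18 has a median above 0 only in the first group among the 4, Fabp7 is highest in the second (median 8.05), and Acta2 has medians of 12.7 and 15.2 in the mixed and basal groups.

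The bud and tip genes ran across the ranges to different degrees. Col9a1 had UMIs in 4 of 14 cells of the luminal and duct-like cluster, and in 13 of 18, 17 of 19 and 19 of 23 cells of the other luminal, mixed and basal groups. Its medians were 0, 3.26, 7.63 and 4.32 UMIs per 10000, and its luminal over basal ratio was 0.33 (0.23 to 0.46). Mia had medians of 3.78, 2.99, 3.76 and 5.12 UMIs per 10000 in the same groups, and its ratio was 1.02 (0.75 to 1.39). A luminal-range cell with 2 keratin UMIs held 39 of the 268 Mia UMIs. Among cells with at least 5 keratin UMIs, which leaves it out, the log2 ratio of Mia was -0.67, against 0.03 over all cells of the ranges. Etv5 was most frequent in the mixed group, with UMIs in 15 of 19 cells, against 13 of 23 in the basal group. Its medians there were 2.96 and 1.69 UMIs per 10000. Its sums were 351 CPM in the whole mixed range and 224 CPM in the whole basal range. In 1 random thinning to 1048 UMIs it was seen in 10 of 19 and 1 of 23, a wider gap than in these levels. Shares from 1 draw of so few UMIs are not a measure of its size. Barx2 had a ratio of 1.26 (0.91 to 1.76), Pax6 1.30 (0.68 to 2.51), and Tfap2b 0.99 (0.58 to 1.70). Sox9 ran the other way from Col9a1, with 17 UMIs in the luminal range and 4 in the basal range, at a total of 30 UMIs. Of 8 bud and tip genes measured, 3 were at least 2-fold lower in the luminal range and none higher. Over all 2112 genes 7.39% were lower and 7.15% higher, and a count among so few genes was not tested against these shares.

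List scores were also compared cell by cell. Over the 74 cells, the score of the basal list had a Spearman rho of 0.56 with that of the myoepithelial list, and the luminal and duct list one of -0.56. The cartilage-type matrix list had a rho of 0.56 with the myoepithelial list and 0.53 with the laminin list. The luminal and basal lists had a rho of -0.13 with each other. Glycolysis and immediate early lists ran opposite ways, at -0.63. These cells share 1 library and differ in depth, and each rho is a description. The rho of a list with UMIs per cell lay between -0.14 and 0.32 for the 10 lists.

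A set of genes best known from cartilage was part of the E16 epithelium. Col9a1 had 371 UMIs in 53 cells, Col9a3, a second collagen IX chain, 127 in 41 and Col2a1, the main cartilage collagen, 32 in 20. Col2a1 had 0 UMIs in P4 cells of the gate and 0 in E16 mesenchymal cells. With the P4 count set to 3, its level was 10.7-fold in E16 over P4, a value that leaves out the counting error of the 32 UMIs. Other genes of cartilage matrix were at 0 UMIs in the epithelium: Acan (aggrecan), Hapln1 (link protein), Comp, Matn1, Matn3, Cnmd (chondromodulin) and Col11a2. Sox5 and Sox6, the partners of Sox9 in cartilage, had 1 UMI each. Col2a1 UMIs were spread over the epithelium, with 7 in the luminal, 17 in the mixed and 8 in the basal range and at most 4 in a cell.

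Against P4, E16 cells held more bud and tip transcripts and less of luminal genes. Of 4816 genes with at least 30 UMIs over both sets, 951 (19.7%) were at least 2-fold higher in E16 and 431 (8.95%) at least 2-fold lower, with a median over all genes of 0.31 on the log2 scale. Without the 5 deepest cells of each set 590 were higher and 437 lower. The secretory list took up 1487 CPM in E16 and 142776 CPM in P4, and also 97088 CPM in P4 cells of the mesenchymal gate. With the 20 most abundant genes of either set left out of the totals the shares were 13.5% and 12.4% and the median 0.08. Of 13 measured bud and tip genes 9 were at least 2-fold higher and none lower, with a median of 1.75. Bmp7 had 34 UMIs in 21 E16 cells and 5 in P4, a ratio of 6.84 (2.66 to 22.4), and Smoc2, a matrix protein of basement membranes, 111 and 15. Tfap2c, an AP-2 factor, was 3.66-fold (2.39 to 5.78) and Tfap2b 2.61-fold (1.77 to 3.92) higher. Sox9, Barx2 and Pax6 did not share this: their ratios were 0.62 (0.38 to 0.99), 0.89 (0.75 to 1.05) and 1.24 (0.86 to 1.81), and for Barx2 the sign turned under 2 other settings.

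Genes of the FGF and Notch pathways were compared in the same way. Receptor genes were Fgfr1, with 47 UMIs in E16 and 13 in P4, and Fgfr2, the receptor for FGF10, with 13 and 2, while Fgf10 itself had 1 UMI in the epithelium and 32 in the E16 mesenchymal cells. On the FGF response list 5 of 7 measured genes were at least 2-fold higher in E16 and none lower. Of all genes 19.7% were higher and 8.95% lower. The median log2 of the list was 1.22. With the 20 most abundant genes left out of the totals 3 of 7 were at least 2-fold higher, with a median of 0.98, and the UMIs of the list as a whole were 1.26-fold (1.17 to 1.35) in E16 over P4. The other measured genes, Spry1 and Phlda1, had ratios of 1.37 and 0.66. Notch1 had 47 and 9 UMIs in E16 and P4, and Hey1 43 and 3, of which 1 cell gave 30.2% in E16. Sfrp1, a secreted Wnt antagonist, was 5.86-fold (4.93 to 7.004) higher, with UMIs in 64 of 74 E16 cells and a median of 5.5 UMIs per cell. Its lowest median among the 4 groups was in the luminal and duct-like cluster, at 6.01 UMIs per 10000. Shh, Ihh, Gli1, Bmp4 and Eda were at 0 UMIs in the E16 epithelium, which at this depth does not show that they are absent.

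Junction genes differed between the stages gene by gene. Cldn3 and Cldn7, both gate genes, were 0.23-fold (0.18 to 0.29 and 0.17 to 0.31) in E16 over P4, and Cldn10 0.15-fold (0.12 to 0.19). Cldn6, a claudin of embryonic epithelia, was 6.10-fold (3.45 to 11.6) higher in E16, with 50.6% of its UMIs in 1 cell. Dsp (desmoplakin), which anchors desmosomes, had 55 and 16 UMIs in E16 and P4. Crb3, which marks the apical side of polarized cells, had 31 and 83. Epcam was 1.06-fold (0.94 to 1.19), with a log2 sign that turned under 2 other settings. Among 18 measured luminal and duct genes, 9 were at least 2-fold lower in E16 and 1 higher, and among 9 basal genes 3 were higher and none lower. Over all 4816 genes 19.7% were higher and 8.95% lower, and the count of 3 among so few basal genes is not set apart from that share.

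**Figure D3:**
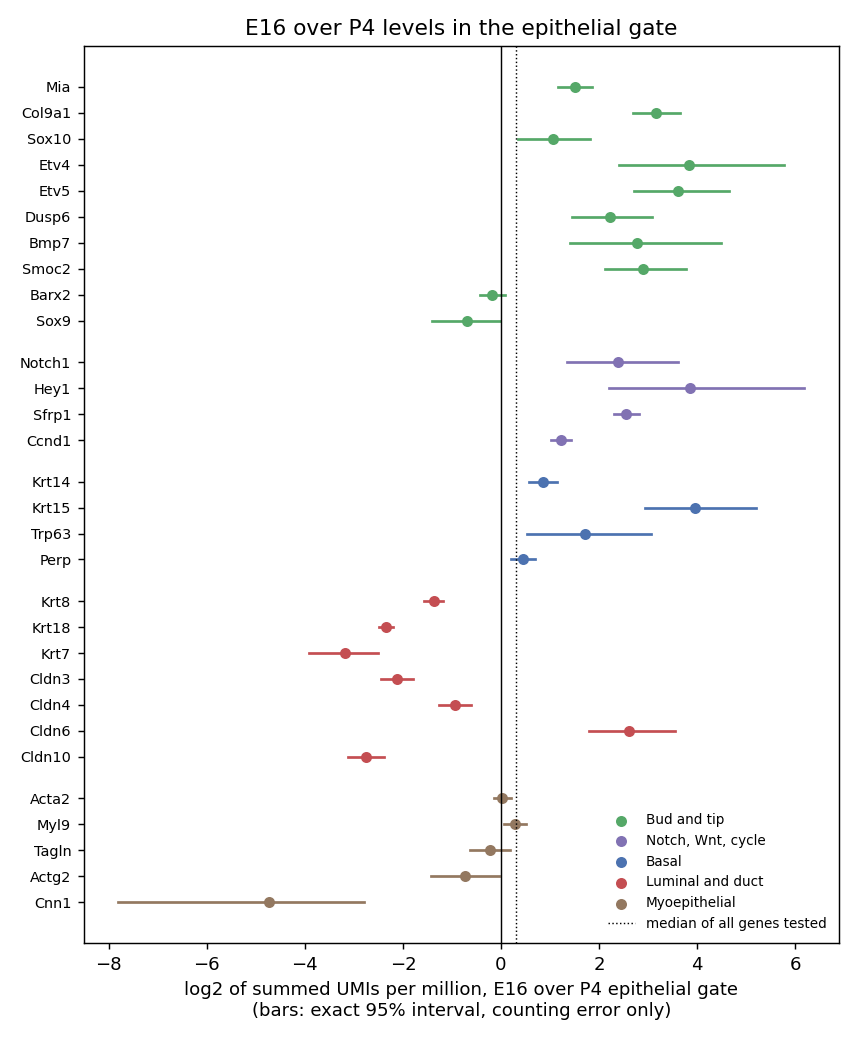
Points give the log2 ratio of summed CPM in the E16 epithelial cells over the P4 cells of the same gate, for genes of 5 groups, with exact 95% intervals for counting error only. Most bud and tip genes lie right of the dotted median of all genes (0.31), luminal genes other than Cldn6 lie left of 0, and Cnn1 lies far from Acta2.

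Tear protein genes were mostly at or near 0 UMIs in the E16 epithelium. Of 25 secretory and tear protein genes in the files, 14 had no UMI in the E16 epithelium. Lcn2 (lipocalin 2), an antibacterial iron-binding protein, had 199 UMIs in 49 E16 cells and 80 in P4, a ratio of 2.50 (1.92 to 3.28), with 3 UMIs in E16 mesenchymal cells. Lcn2 was spread over the ranges, with 58 UMIs in the luminal, 66 in the mixed and 75 in the basal range. Wfdc18 had 610 UMIs in 23 E16 cells and 3000 in P4. Aqp5, the water channel of secretory cells, had 10 UMIs in 9 E16 cells and 284 in P4, and Esp6, an exocrine-gland secreted peptide, 6 and 858. Dcpp1, a secreted protein abundant at P4, had 18 UMIs in 10 E16 cells, at most 4 in a cell. All 10 of these cells had Mia UMIs and 9 had Col9a1 UMIs, and 7 were in the basal range, 2 in the mixed and 1 in the luminal range. Among the 160 other E16 cells 1 had a Dcpp1 UMI, at a median of 5487.5 UMIs. Of 309 P4 cells outside the gate 246 (79.6%) also had Dcpp1 UMIs. Of these 309 cells 210 met the mesenchymal gate, and they held the secretory list at 97088 CPM, against 142776 CPM in P4 cells of the epithelial gate. Dcpp1 UMIs outside the gate do not tell free RNA from secretory cells that the gate missed. The P4 values are thus those of the gate alone, and the part of free RNA in them was not tested.

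Cycling genes were detected across the keratin ranges. With each cell thinned to 1048 UMIs, 36 of 73 E16 cells (49.3%, 37.4 to 61.3%) had UMIs of at least 3 of 32 G2/M genes, against 34 of 76 P4 cells (44.7%, 33.3 to 56.6%). Unthinned, the counts were 57 of 74 and 55 of 85. The E16 mesenchymal cells gave 28 of 104 thinned (26.9%, 18.7 to 36.5%). By range the thinned counts were 14 of 28 luminal, 9 of 20 mixed and 13 of 25 basal, and for 3 or more S phase genes 14, 9 and 8. Top2a, an enzyme of chromosome separation, had a luminal over basal ratio of 0.83 (0.53 to 1.32), but 2 UMIs in the luminal and duct-like cluster and 144 in the other cells. Of 17 G2/M genes measured over the ranges 1 was at least 2-fold higher in the luminal range and none lower, against 7.15% and 7.39% of all genes. Free RNA can add to such counts, so a detected gene does not by itself show a dividing cell. Hist1h1b, a linker histone made in S phase, had 310 UMIs in 35 E16 cells and 36 in 6 P4 cells, a ratio of 8.66 (6.12 to 12.6), while Pcna, the replication clamp, was 1.07-fold (0.83 to 1.37).

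**Figure D4:**
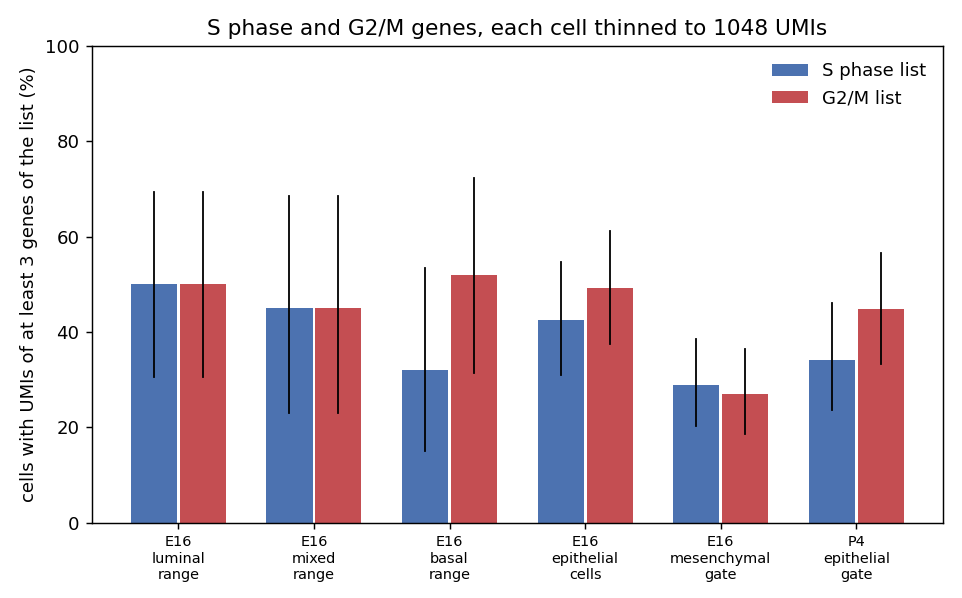
Bars give the share of cells with UMIs of at least 3 genes of the S phase list or the G2/M list after each cell was thinned to 1048 UMIs, with exact 95% intervals. The E16 keratin ranges overlap one another, at 45.0% to 52.0% for G2/M, and the E16 mesenchymal cells are at 26.9%.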

How the data were processed

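Single cells of pooled E16 and P4 lacrimal glands of CD1 mice were profiled by droplet barcoding. The authors deposited UMI counts per gene and barcode, whole and not normalized, made with Cell Ranger on mm10, per the submitters' processing notes. The version and the choice of barcodes were not given in the sources used here. Counts were summed over cells and scaled to 1000000 (CPM). Ratios have exact conditional 95% intervals and shares exact Clopper-Pearson ones. A gene at 0 was set to 3 counts over the group in fold values. Clustering used scanpy 1.11.5 (1000 variable genes, 10 components, 10 neighbours, resolution 1.0, seed 0). Scrublet called 3 E16 and 4 P4 cells, 0 in either gate, and none was removed. Code was tested on simulated data, and other gates, scalings, minimums and clustering settings were tried. The members and gene lists were chosen with earlier results of these data known. Named genes are gate and marker genes, the most abundant or furthest apart members of each list, leading cluster genes and the genes furthest apart between sets. Genes named for the keratin ranges or for a count were chosen after their values were seen.
Results on some genes are not reported here.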

Additional observations from a re-analysis of the deposited data

How the results depend on the processing

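No paired analysis was possible because each stage is 1 library. Depth and cell number limit all values: 74 cells, many with few keratin UMIs. Of 528 gene ratios of E16 over P4 under other settings 8 changed sign, in Epcam, Barx2 and Acta2, and of 81 luminal over basal ratios 1 did, in Mia. Settings added after seeing the data were those without each gene's top cell, the clustering without genes concentrated in 1 cell, and the other keratin limits. The cause of the changes was not tested.

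Genes at least 2-fold higher and lower in E16 over P4 numbered 291 and 154 at a minimum of 100 UMIs and 2024 and 830 at 10 UMIs, and those over E16 mesenchymal cells 245 and 385, and 1399 and 2100. Without the 5 deepest cells of each set 590 were higher and 437 lower over P4, so that the share of higher genes among those apart was 57.4%, against 68.8% with all cells. List ratios of E16 over P4 kept their direction. In the main setting they were 1.73 (basal), 0.382 (luminal and duct), 2.51 (bud and tip), 4.42 (cartilage-type) and 3.05 (glycolysis and hypoxia). The basal list moved to 2.12 (no endothelial and at most 1 other-cell UMI), 1.95 (cells weighted equally) and 1.47 (20 most abundant genes out). The luminal and duct list moved to 0.406, 0.454 and 0.324 under these, and to 0.402 without the 5 deepest cells. The bud and tip list was 2.20 without these cells and 2.13 with the abundant genes out, and the cartilage-type list 3.18 with cells weighted equally and 3.76 with the abundant genes out. The glycolysis list was 2.90 (E above 3 times M), 2.87 (strict other-cell limit), 2.73 (without the deepest cells), 2.51 (equal weights) and 2.59 (abundant genes out). Thinned cells with G2/M genes in E16 were 61.4% under the strict limit, 64.4% with at least 2 genes and 26.03% with at least 5, and in P4 32.9% with at least 5. Cells with both keratin kinds were 21.9% in E16 and 14.5% in P4 when thinned. Clusters numbered 3 at resolution 0.5.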
